A study of Rattus norvegicus with 5 samples.

Results

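Irgm, Apol3l1, Ly6c, Phf11 with its neighbour Phf11b, Ifi47 and Ifi35 are interferon-linked or immune-associated genes of the liver that lie outside the classic antiviral families. They were taken as the probe sets that the platform annotation assigns to these symbols, which gave 6 probe sets of 8797, and all 6 symbols were measured. They were chosen because earlier results of these arrays showed them strongly lower in the congenic strain or because they are linked to interferon. The strain difference of each member is therefore given as a description, with no test, and the choice used no numerical limit. Phf11 and Phf11b share 1 probe set, so their transcripts were not separated.

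The samples were livers of 4-month-old male rats on standard chow, from PD, the polydactylous inbred rat strain, and from a congenic strain in which PD rats carry a segment of chromosome 4 from SHR, the spontaneously hypertensive rat. Its name is PD.SHR4 in the sample labels and PD.SHR4a in the text of the series. RNA of 8 rats per strain was used, the labelled cDNA was pooled by strain, and the pools were read on Affymetrix Rat Exon 1.0 ST arrays, 3 for PD and 2 for PD.SHR4. The arrays of a strain are not labelled as separate rats, so their spread may be technical, and the spread between rats is not measured. Values are log2 RMA expression values, on which a difference of 1 is a doubling. They carry no detection call, and a level is set against the spread of all probe sets only to say how bright a probe set was, which also depends on its probes.

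Interferons are signalling proteins released when cells sense microbes. Type I interferons and interferon gamma bind their receptors, activate Janus kinases and STAT factors, and so switch on many genes through promoter elements called ISRE, which IRF proteins bind, and GAS. Irgm and Ifi47 encode immunity-related GTPases, which act on the membranes around intracellular microbes, and Irgm proteins also take part in autophagy. Apol3l1 belongs to the apolipoprotein L family of lipid-binding proteins, and Ly6c encodes a small cell surface protein of the Ly6 family, held by a glycolipid anchor. Phf11 encodes a nuclear protein with a PHD finger, and Ifi35 a leucine zipper protein that pairs with NMI. In liver such genes can be expressed by hepatocytes as well as by resident immune cells.

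Promoter letters are shown first, because the members read lower together and are linked to interferon. RefSeq promoter sequences of assembly GRCr8 were matched for 6 of the 7 genes: Irgm, Apol3l1, Phf11, Phf11b, Ifi47 and Ifi35. The 100 bases before the annotated start are printed in the direction of the gene, and that of Apol3l1 runs on to base 11 of the transcript because a match lies there. Capitals mark matches to the ISRE core (GAAA, any 2 bases, GAAA), to a shortened form of it, AAANNGAAA, to a form with 1 base between the repeats, GAAANGAAA, or to the GAS element TTCNNNGAA, on either strand. These letters were chosen after the promoters had been read.
Irgm, chr10:33742579-33742678, minus strand: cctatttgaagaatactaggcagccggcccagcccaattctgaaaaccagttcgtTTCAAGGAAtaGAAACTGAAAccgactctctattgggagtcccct
Ifi47, chr10:33798644-33798743, plus strand: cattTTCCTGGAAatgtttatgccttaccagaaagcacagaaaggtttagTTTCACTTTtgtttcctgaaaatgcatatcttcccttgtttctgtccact
Apol3l1, chr7:111169207-111169317, plus strand: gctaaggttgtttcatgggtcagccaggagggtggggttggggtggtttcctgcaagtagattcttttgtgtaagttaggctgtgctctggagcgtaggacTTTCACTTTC
Phf11b, chr15:37495806-37495905, minus strand: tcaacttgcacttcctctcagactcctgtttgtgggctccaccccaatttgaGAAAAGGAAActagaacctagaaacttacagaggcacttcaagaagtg
Ifi35, chr10:86881170-86881269, plus strand: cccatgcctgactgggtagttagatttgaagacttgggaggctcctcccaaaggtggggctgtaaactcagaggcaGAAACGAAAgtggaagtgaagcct

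Irgm, Apol3l1 and Phf11b held the ISRE core within the window from 250 bases before to 50 bases after the start. The match lay 34 to 25 bases before the start in Irgm, 48 to 39 before it in Phf11b, and at bases 2 to 11 of the transcript, in reverse orientation, in Apol3l1. Ifi47 held only the shortened form AAANNGAAA, in reverse orientation, 50 to 42 bases before the start, and Ifi35 held GAAANGAAA 24 to 16 bases before it. Phf11b held a further match to GAAANGAAA, outside the printed stretch. The GAS element occurred in Irgm, 45 to 37 bases before the start and right beside its ISRE core, and at 2 places in Ifi47, of which the nearer lay 96 to 88 bases before the start.

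Phf11, the other gene of the shared probe set, held none of these letters in its window. Of 33469 promoters of this length, 3.92% held the ISRE core, 11.8% AAANNGAAA, which every ISRE core contains, 3.50% GAAANGAAA and 8.87% TTCNNNGAA. Among the 6 promoters here the counts were 3, 4, 2 and 2. Over other measured genes with a promoter in the table, 228 of 6228 (3.66%) held the ISRE core, and in the classic antiviral list, described further on, 12 of 18 did. Of these 18, 14 held AAANNGAAA, 0 held GAAANGAAA, the only form in Ifi35, and 6 held TTCNNNGAA. Among 33 promoters of measured genes beside the members, the 4 counts in this order were 2, 7, 1 and 5. A match is a description of letters and not a measured binding site.

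All 6 probe sets read lower in PD.SHR4, and in 5 of them by 3.82-fold to 6.65-fold. Irgm and Ifi47, the immunity-related GTPases, come first. Irgm measured 9.21, 9.01 and 9.74 in PD and 7.63 and 7.14 in PD.SHR4. Every PD array lay above both PD.SHR4 arrays, with 1.38 between the nearest 2. The means were 9.32 ± 0.37 (SD, n = 3) and 7.39 ± 0.35 (SD, n = 2), a log2 difference of -1.93, or 3.82-fold lower. Ifi47 measured 8.35, 7.72 and 9.34 in PD and 6.09 and 5.92 in PD.SHR4. Its PD arrays were the most widely spread of the 6 members, over 1.63, while its PD.SHR4 arrays lay within 0.16 of each other. Its means were 8.47 ± 0.82 (SD, n = 3) and 6.01 ± 0.11 (SD, n = 2), a log2 difference of -2.47, or 5.53-fold lower.

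Apol3l1 had the widest gap between the strains relative to its spread. It measured 9.10, 9.47 and 9.06 in PD and 6.55 and 6.41 in PD.SHR4. The nearest arrays of the strains were 2.51 apart, against a range of 0.41 within PD and 0.14 within PD.SHR4. The log2 difference was -2.73, or 6.65-fold lower, from 9.21 ± 0.23 (SD, n = 3) to 6.48 ± 0.098 (SD, n = 2). Only 8 of the 8797 probe sets had a lower difference than Apol3l1, which stood at rank 9 from the lowest difference, followed by Ly6c at rank 10.

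Ly6c measured 7.40, 7.43 and 8.40 in PD and 4.86 and 5.24 in PD.SHR4. PD array 3 stood about 1 above the other PD arrays, and the strains did not overlap. Its means were 7.74 ± 0.57 (SD, n = 3) and 5.05 ± 0.27 (SD, n = 2), a log2 difference of -2.70, or 6.48-fold lower. The PD.SHR4 level was close to the median of all probe sets, which was 5.21 to 5.38 over the arrays.

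The probe set shared by Phf11 and Phf11b measured 7.35, 7.80 and 8.18 in PD and 5.29 and 5.26 in PD.SHR4. The PD.SHR4 arrays differed by only 0.04, and both lay more than 2 below the lowest PD array. The log2 difference was -2.50, or 5.67-fold lower, from 7.78 ± 0.41 (SD, n = 3) to 5.27 ± 0.025 (SD, n = 2), at rank 14 from the lowest.

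Ifi35 differed least. It measured 7.21, 7.33 and 7.71 in PD and 6.83 and 6.89 in PD.SHR4. The strains did not overlap, but the gap of 0.32 was smaller than the range of 0.51 within PD. The means were 7.42 ± 0.26 (SD, n = 3) and 6.86 ± 0.044 (SD, n = 2), a log2 difference of -0.56, or 1.47-fold lower, at rank 466 of 8797.

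**Figure D1:**
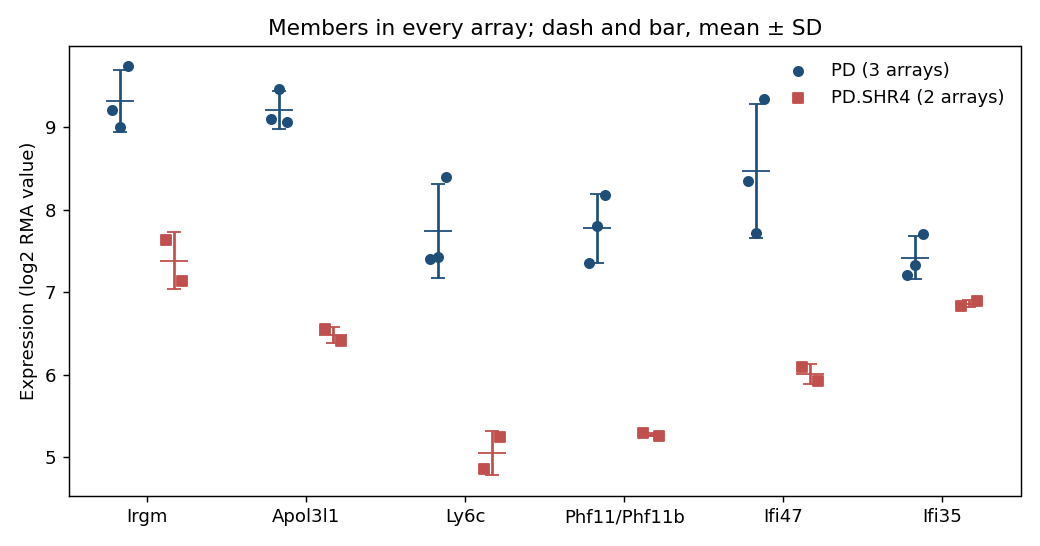
Log2 RMA value (vertical axis) of each member in the 3 PD arrays (blue circles) and the 2 PD.SHR4 arrays (red squares), with the mean (dash) and SD (bar). In every member the PD arrays lie above the PD.SHR4 arrays. The gap is widest in Apol3l1, at 2.51, and narrowest in Ifi35, at 0.32.

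The median log2 difference over the 6 members was -2.48, beside 2.0e-04 over all probe sets. All 6 had arrays that did not overlap between the strains. Of all probe sets, 17.1% were lower without overlap. A gap wider than the range within either strain was found in 5 members, all but Ifi35, and in the lower direction in 4.92% of all probe sets. Since the members were chosen on this contrast, nothing is read from these counts. For Ifi47 the gap and the range, both 1.63, were nearly equal.

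**Figure D2:**
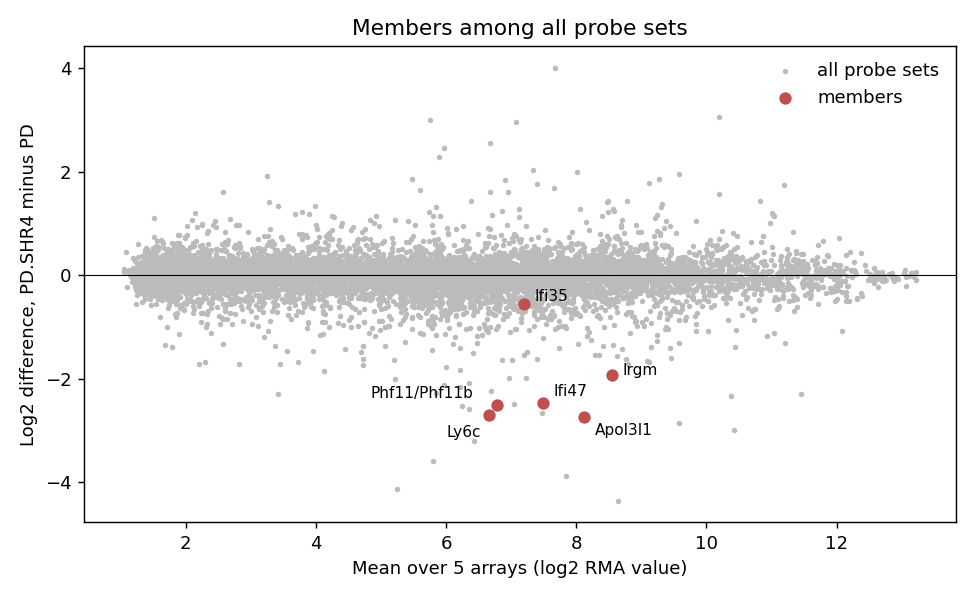
Log2 difference, PD.SHR4 minus PD (vertical axis), against the mean over the 5 arrays (horizontal axis, log2 RMA value) for all 8797 probe sets (grey), with the 6 members in red. The members other than Ifi35 lie between -1.93 and -2.73, far from the bulk of the probe sets around 0.

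Within PD, array 3 gave the highest PD value in 5 of the 6 members, all but Apol3l1, whereas it did so in 26.3% of all probe sets. It also did so in 18 of 23 measured genes of the classic antiviral families and in 34 of the 58 probe sets that were lower in PD.SHR4 across the array. Ifi47 was 0.87 above its PD mean in this array, Ly6c 0.66, Irgm 0.42, Phf11 0.40 and Ifi35 0.29, while Apol3l1 was 0.15 below it (-0.15). The lowest PD array was array 2 for Irgm and Ifi47, array 1 for Ly6c, Phf11 and Ifi35, and array 3 for Apol3l1, so the members did not share a single order of the PD arrays. A high PD array 3 also raises the PD mean in the contrast that chose the members, and its part in their choice was not tested. Without PD array 3 the log2 differences were -1.72 for Irgm, -2.81 for Apol3l1, -2.37 for Ly6c, -2.30 for Phf11, -2.03 for Ifi47 and -0.41 for Ifi35.

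Genes with the most similar pattern were ranked by the root mean square distance, over the 5 arrays, between their values and those of the members, each gene taken relative to its own mean. The mean profile of the 6 members came closest to Prlr, the prolactin receptor gene, at a distance of 0.026. Prlr measured 6.57, 6.63 and 7.25 in PD and 4.73 and 4.69 in PD.SHR4. Next were the antiviral gene Ifit3 at 0.221, Wfdc21 at 0.227, the leukotriene C4 synthase gene Ltc4s at 0.237 and the oligoadenylate synthetase gene Oas1i at 0.239. The phosphate transporter gene Slc34a2 at 0.261, Apol9a at 0.262 and Ifgga2l1, an interferon-gamma-inducible GTPase gene, at 0.264 completed the nearest 8. The distance uses the strain difference that chose the members, so the order is a description.

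**Figure D3:**
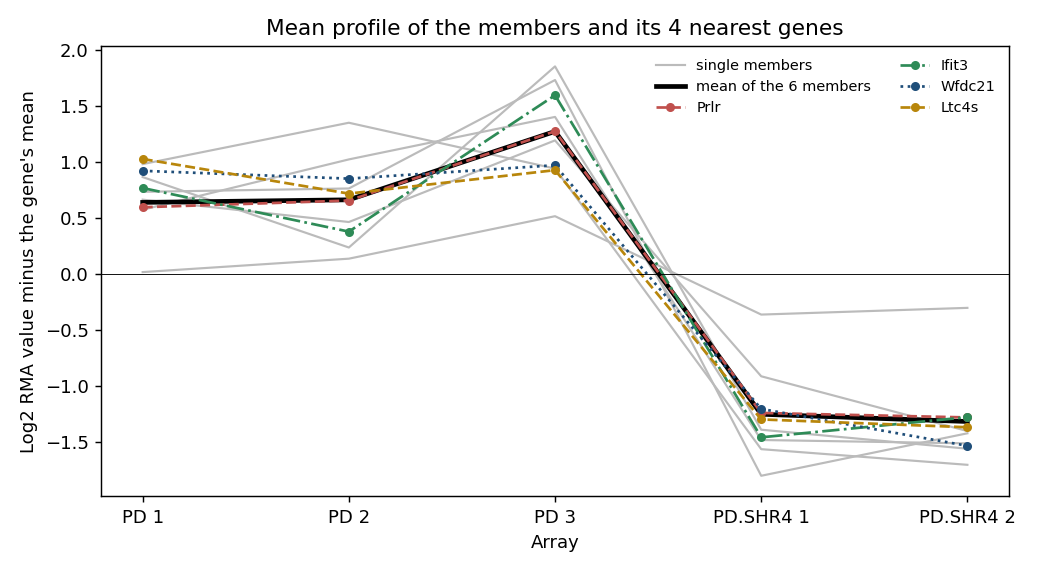
Log2 RMA value minus each gene's mean over the 5 arrays (vertical axis) by array (horizontal axis), for the 6 members (grey), their mean (black) and the 4 nearest genes (coloured). The Prlr line follows the mean of the members at a distance of 0.026, including its peak in PD array 3.

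Taken singly, the members had different nearest genes. Ifi47 was nearest to the antiviral genes Oasl at 0.174, Ifit3 at 0.191 and Mx1 at 0.200, and Ly6c to Ifit3 at 0.251, Mx1 at 0.259 and Ifi47 at 0.318. Irgm was nearest to Oas1a at 0.178, Oas1i at 0.184 and Prlr at 0.184. Apol3l1, without the peak in PD array 3, was nearest to the acid phosphatase gene Acp3 at 0.173, the sterol-regulated gene Insig1 at 0.217 and Wfdc21 at 0.287. Phf11 was nearest to Acp3 at 0.216, Prlr at 0.231 and Ly6c at 0.252. Ifi35, with its small difference, was nearest to Zc3hav1, an antiviral zinc finger gene, at 0.047, Hopx at 0.068 and the ubiquitin ligase gene Rnf114 at 0.071. No gene of the interferon lists, which leave out Zc3hav1, was among the nearest 3 of Apol3l1, Phf11 or Ifi35. Between members the closest pair was Ly6c and Phf11 at 0.25, and, leaving out Ifi35, the farthest was Apol3l1 and Ifi47 at 0.66.

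None of the members lies on chromosome 4, from which the congenic segment comes. In the GRCr8 gene table Irgm, Ifi47 and Ifi35 are on chromosome 10, Apol3l1 and Ly6c on chromosome 7 and Phf11 with Phf11b on chromosome 15. Around each member the 5 nearest measured genes on either side were read in gene order, a step chosen after the members' values were seen. Of these 50 neighbours, 0 rose and 0 fell (limma, adjusted p under 0.05). At an unadjusted p under 0.05 there were 13 of the 50, beside 13.8% of all probe sets, and 1 fell with the replicate number as a block or with an intensity trend and robust shrinkage. Across all 8797 probe sets 0.932% were called, 0.659% as lower and 0.273% as higher. The neighbours' median log2 difference was 0.02.

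Irgm and Ifi47 follow each other among the measured genes, with 3 other genes between them. Directly beside them lay Rack1, a ribosomal scaffold protein gene, at 0.02, and the olfactory receptor gene Or2v1 at 0.04. Farther out, Timd2, the third measured gene before Irgm, measured 11.28, 11.38 and 11.41 in PD and 10.71 and 10.74 in PD.SHR4 (-0.63 ± 0.11 SE; adjusted p = 0.0785, limma). Apol3l1 had its family member Apol9a beside it at -1.68, and Ly6c had Ly6e beside it at -1.11. On their other sides the values were -0.35 for Myh9, the non-muscle myosin heavy chain gene, and -0.02 for Top1mt, the mitochondrial topoisomerase gene. Directly beside Phf11 lay Fgf9 at 0.31, which read only 2.33 to 2.97, and Cab39l at 0.48. Farther out, Cryl1 measured -0.48, Gjb2 -0.32, Gjb6 0.31 and Cdadc1 0.29, none of which passed. Around Ifi35, Tmem106a measured -0.74, Brca1 -0.45 and the glucose-6-phosphatase gene G6pc1 -1.17, none of which passed.

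**Figure D4:**
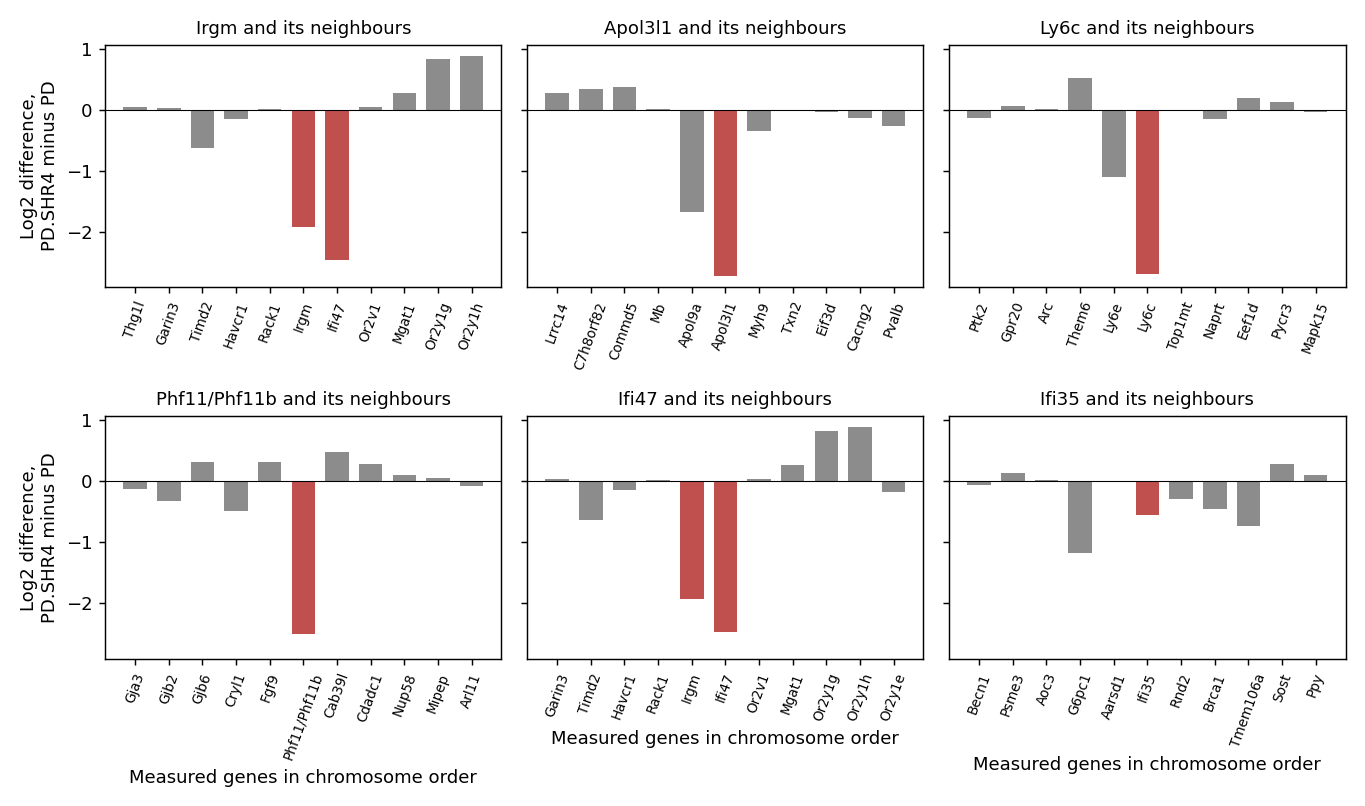
Log2 difference, PD.SHR4 minus PD (vertical axis), of each member (red) and of the 5 measured genes on either side in chromosome order (grey; red where the neighbour is itself a member). Irgm and Ifi47 form a pair of low bars, and Apol9a and Ly6e stand low beside Apol3l1 and Ly6c. The bars directly beside Phf11 lie above 0, with some below 0 farther out.

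Of the listed and measured relatives of the members by family or partnership, none passed the test singly, beside 0.932% of all probe sets called. The lists from here on were chosen with earlier results of these data known, so their counts are descriptions. Of the immunity-related and guanylate-binding GTPases listed beside the members, 2 of 16 were measured. The guanylate-binding protein gene Gbp2 measured 6.66, 6.99 and 7.17 in PD and 6.03 and 5.51 in PD.SHR4 (log2 difference -1.17 ± 0.22 SE; adjusted p = 0.0855, limma), and Irgc 0.05 ± 0.20 (SE). A further relative, Ifgga2l1, was not on that list and came up through the nearest profiles. It measured 4.39, 4.06 and 4.71 in PD and 2.76 and 2.67 in PD.SHR4, and a test of it on the contrast that picked it is not given.

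In the Apol and Ly6 families, the Phf11 neighbourhood and the partners and neighbours of Ifi35, 22 of 63 listed genes were measured. Of the 22, 0 rose or fell (limma), beside 0.932% of all probe sets called. At an unadjusted p under 0.05 there were 5 of the 22, beside 13.8% of all probe sets. Of these 5, Apol9a, Ly6e, Cdadc1 and Brca1 were also counted among the neighbours above, so the counts share genes. With the replicate number as a block, 1 of the 22 fell. The median log2 difference of the 22 was -0.057. Apol9a measured 9.49, 9.45 and 10.4 in PD and 8.11 in both PD.SHR4 arrays (-1.68 ± 0.32 SE; adjusted p = 0.0838). Ly6e, a Ly6 gene known as interferon-induced, measured 9.35, 8.83 and 9.62 in PD and 8.28 and 8.03 in PD.SHR4 (-1.11 ± 0.25 SE; adjusted p = 0.124). The remaining 9 measured Ly6 family genes lay between Lypd1 at -0.39 and Ly6g6f at 0.27. Close paralogues may bind each other's probes, which was not tested.

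Of the autophagy genes, with whose products Irgm proteins act, 13 of 22 were measured. Of the 13, 0 rose or fell (limma), beside 0.932% of all probe sets called. At an unadjusted p under 0.05 there were 3 of the 13, beside 13.8% of all probe sets. The median of the 13 was -0.084. The largest values were 0.76 ± 0.13 (SE; adjusted p = 0.0727) for Map1lc3b, which encodes the autophagosome protein LC3B, and -0.67 ± 0.17 (SE; adjusted p = 0.168) for Pik3c3, the lipid kinase that starts autophagosome formation. Gabarapl2 measured -0.51 ± 0.16 (SE) and Sqstm1, the p62 cargo receptor gene, 0.31 ± 0.15 (SE).

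Along the interferon pathway, 4 genes of the induced antiviral families and the cytokine gene Il18 fell, and no receptor, kinase, transcription factor or inhibitor gene passed. Whether the roles differ was not tested. Over all roles, 42 of 93 listed genes were measured, of which 5 fell, 0 rose and 37 did not pass (limma, adjusted p under 0.05), beside 0.659% of all probe sets that fell. At an unadjusted p under 0.05 there were 23 of the 42, beside 13.8% of all probe sets. The median log2 difference of the 42 was -0.53. The count was 1 without PD array 1 or PD array 3 and 5 without PD array 2. Over all probe sets, 82 were called with all arrays, and 28, 55 and 18 without PD array 1, 2 and 3. The cause of these changes was not tested. A fit without a PD.SHR4 array leaves a lone array in that strain, which is assumed to vary like PD.

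Of 6 measured ligands and inducing cytokines, Il18, which with interleukin 12 drives interferon gamma release, fell. It measured 5.98, 6.12 and 6.05 in PD and 4.82 and 5.04 in PD.SHR4 (-1.12 ± 0.13 SE; adjusted p = 0.0372), and did not pass without any 1 of the 5 arrays (adjusted p = 0.0545 to 0.294). The interferon genes themselves, Ifnb1 at 0.13 ± 0.13 (SE) and Ifng at 0.09 ± 0.12 (SE), read 1.76 to 2.17 on every array, below the lower quartile of all probe sets (2.84 to 2.93). Il12b measured 0.70 ± 0.18 (SE; adjusted p = 0.171).

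The receptor gene Ifngr1 measured -0.14 ± 0.15 (SE), and the kinase genes Jak1 and Jak2 0.26 ± 0.12 and -0.25 ± 0.14 (SE). None of the 5 measured transcription factors passed. Irf1, a factor directly induced by interferon gamma, measured 6.63, 7.60 and 7.32 in PD and 6.11 and 6.18 in PD.SHR4 (-1.04 ± 0.29 SE; adjusted p = 0.189). Irf9, the DNA-binding part of the ISRE-binding complex, measured 8.09, 8.25 and 8.54 in PD and 7.60 and 7.55 in PD.SHR4 (-0.72 ± 0.16 SE; adjusted p = 0.128). Stat2 measured -0.19 ± 0.15 (SE) and Stat3 0.25 ± 0.17 (SE). Among 5 inhibitors the phosphatase gene Ptpn2 measured -0.74 ± 0.13 (SE; adjusted p = 0.0772), while Socs1 and Socs3 measured 0.16 ± 0.19 and 0.09 ± 0.25 (SE).

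In the classic antiviral families, 23 of 50 listed genes were measured, 4 fell, 0 rose and 19 did not pass. Of the 23, 21 lay below 0, all without overlap between the strains, beside 17.1% of all probe sets. At an unadjusted p under 0.05 (limma) there were 18 of the 23, beside 13.8% of all probe sets. The list was chosen with earlier results of these data known, so these counts are a description. The list's median was -0.97. Those that fell were Oasl2, Mx1, Bst2 and Ifit1. Oasl2 differed by -1.74 ± 0.13 (SE; adjusted p = 0.0106), and Bst2, which tethers budding virus particles, by -0.97 ± 0.14 (SE; adjusted p = 0.0485). The members other than Ifi35, at -1.93 to -2.73, fell within the range of this list, which ran from -3.88 to 0.20. Ifi35, at -0.56, was closer to 0 than the list's median. Without PD array 1 or 3 only 1 of the 23 fell, and without either PD.SHR4 array 0 did, whereas 10 fell with the replicate number as a block and 7 with an intensity trend and robust shrinkage or without the dimmest 25% of probe sets. No labels pair the arrays by that number. The median stayed between -1.16 and -0.92 when any 1 array was left out.

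**Figure D5:**
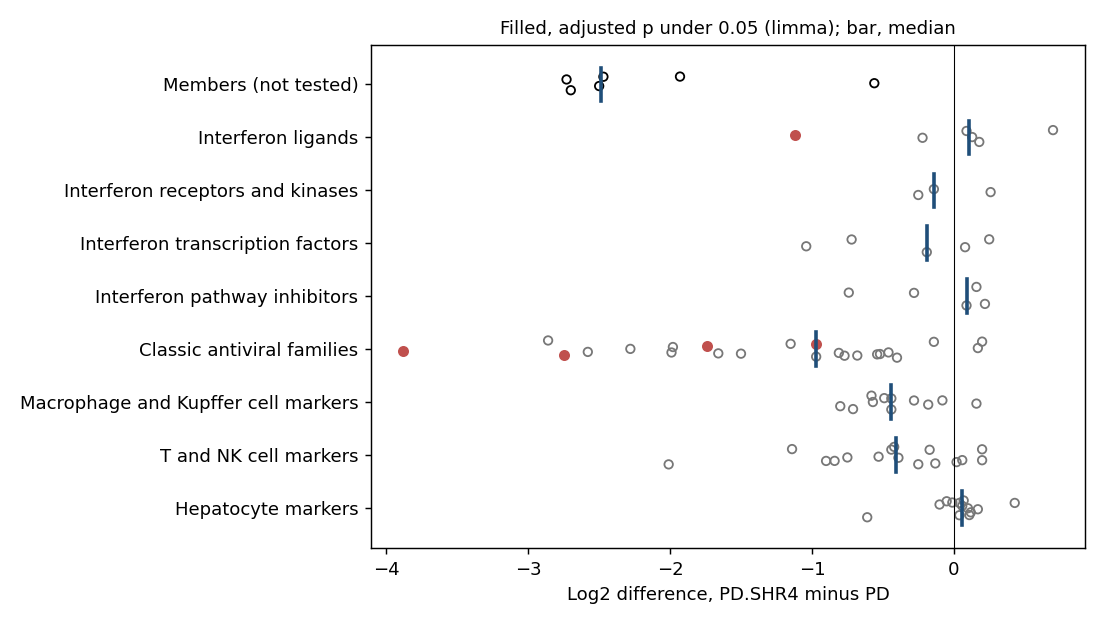
Log2 difference, PD.SHR4 minus PD (horizontal axis), of the members, of the interferon pathway by role and of cell type markers (rows), 1 point per gene, with the median of each row as a bar. Filled points passed limma at an adjusted p under 0.05, and the members were not tested. The classic antiviral row, with a median of -0.97, reaches from -3.88 to 0.20, while the hepatocyte row has its median at 0.058.

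Markers of the tissue and of its immune cells were read beside the members. Hepatocyte markers had a median log2 difference of 0.058 over 13 genes, and Alb read 13.2 to 13.3 on all arrays. Their summed linear level was 74200 to 77600 in PD and 78100 and 78000 in PD.SHR4. Of the 13 genes, 3 were lower and 5 higher without overlap between the strains, beside 17.1% and 14.8% of all probe sets. The largest values were -0.61 ± 0.21 (SE, adjusted p = 0.27, limma) for Tat and 0.43 ± 0.11 (SE, adjusted p = 0.169) for Cyp2e1. Macrophage and Kupffer cell markers were below 0 in 10 of 11 genes, with a summed level of 5940 to 6720 in PD and 4990 and 5170 in PD.SHR4. The 4 of smallest p were the immune receptor adaptor gene Tyrobp at -0.80 ± 0.12 (SE; adjusted p = 0.0572), Aif1 at -0.58 ± 0.12, the macrophage receptor gene Adgre1 at -0.71 ± 0.16 and the complement receptor gene Vsig4 at -0.57 ± 0.14 (SE). Of the 11 genes, 9 were lower and 1 higher without overlap between the strains, beside 17.1% and 14.8% of all probe sets. Clec4f, a Kupffer cell gene, differed least in this list. It read 10.4 to 10.7 on all arrays and measured -0.08 ± 0.13 (SE). T and natural killer cell markers were below 0 in 12 of 16 genes, with a summed level of 595 to 685 in PD and 452 and 453 in PD.SHR4. Of the 16 genes, 10 were lower and 0 higher without overlap between the strains, beside 17.1% and 14.8% of all probe sets. Smallest in p were Klrk1 at -1.14 ± 0.21 and Prf1 at -0.90 ± 0.16 (SE, adjusted p = 0.0811 for both). Next came the cytotoxic gene Gzmb at -2.01 ± 0.42 (SE, adjusted p = 0.106) and Gzma at -0.75 ± 0.16 (SE). Cd3d, a part of the T cell receptor complex, measured -0.44 ± 0.12 (SE) and read 2.72 to 3.27, near the lower quartile of all probe sets.

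Neutrophil and monocyte markers were below 0 in 5 of 7 genes (summed level 295 to 359 in PD, 271 and 251 in PD.SHR4), dendritic cell markers in 1 of 3 and B cell markers in 1 of 2. Of these 39 immune cell markers 0 rose or fell (limma), beside 0.932% of all probe sets called. At an unadjusted p under 0.05 there were 18 of the 39, beside 13.8% of all probe sets. Of the 39, 2 fell with the replicate number as a block and 1 with an intensity trend and robust shrinkage or without the dimmest 25% of probe sets. Outside the immune lists, erythroid markers were below 0 in 3 of 3 genes, all without overlap between the strains, beside 17.1% of all probe sets. The erythroid median was -0.66 (summed level 1910 to 2360 in PD, 1280 and 1560 in PD.SHR4). Stellate cell and fibroblast markers were below 0 in 7 of 10, with a median of -0.31 (summed level 1210 to 1660 in PD, 1120 and 1090 in PD.SHR4), endothelial markers in 1 of 3 and cholangiocyte markers in 1 of 3. None of these 4 lists had a gene that passed. No marker had a value of 0 on any array, as RMA values do not reach it. Their part in the members' differences was not tested. In whole liver, fewer cells of a type and less RNA per cell cannot be told apart.

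As a check of the labels, Cd36, in which SHR rats are deficient, measured 7.35, 7.83 and 7.93 in PD and 4.18 and 4.85 in PD.SHR4 (-3.19 ± 0.26 SE; adjusted p = 0.0149, limma), from a probe set that it shares with Cd36l1. It did not pass without PD array 3 (adjusted p = 0.0516) or without PD.SHR4 array 1 or 2 (0.105 and 0.130 as adjusted p). Over the whole array 58 probe sets fell and 24 rose, or 59 and 41 after centring arrays on their medians and 65 and 47 after a further quantile normalisation.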

How the data were processed

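Per the labels, the authors computed the deposited log2 expression values with RMA in Affymetrix Expression Console at the core-gene level, while Partek appears beside RMA in the submitters' processing notes. The build is not given in the sources used here, nor are versions. RMA corrects background, normalises by quantiles and summarises probes, which compresses low signals. Precision is limited by the number of arrays. SE and p-values rest on the spread between arrays of pooled cDNA, and the spread between rats was not measured.

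Gene names came from GEO's platform annotation (7603 with 1 symbol, 409 with several, 785 with none), with current symbols, chromosomes and gene order from the RefSeq table of GRCr8 (7584 matched). Strains were compared over all 8797 probe sets and 5 arrays with limma 3.58.1 in R 4.3.3 (lmFit, eBayes, PD.SHR4 minus PD, two-sided, no covariate; SE from the moderated fit), with Benjamini-Hochberg adjustment and a threshold of 0.05. The fit was tested on simulated arrays of 8797 probe sets, where it recovered 8.7% of log2 differences of 0.585 and 71.4% of those of 1, and 9 of its 154 calls were false. The brightest probe set stood for a gene with several.

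The members and gene lists were chosen with earlier results of these data known. Named genes were the members, up to 4 genes of smallest p per list, the 8 genes nearest to the members jointly and the 3 nearest to each, and Cd36. Genes named as neighbours, Ifnb1, Ifng, Socs3, Clec4f, Cd3d and Alb were chosen after their values were seen. Alternatives were the fit without each array, a block for the replicate number, median centring, a further quantile normalisation, an intensity trend with robust shrinkage, and leaving out the dimmest 25% of probe sets.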

Additional observations from a re-analysis of the deposited data

How the results depend on the processing

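The 6 members were lower in PD.SHR4 in all 10 alternative fits, and each difference moved by less than its spread between arrays. Leaving out an array could not turn a direction, since arrays did not overlap. The members' median log2 difference was -2.62 to -2.17 when 1 array was left out and -2.48 to -2.17 otherwise. Counts of changed genes were less stable. Without 1 array the counts were 0 to 55 over all probe sets, 0 to 5 in the interferon pathway and 0 among GTPases, other relatives and immune markers. An intensity trend with robust shrinkage gave 151 on the array, 8 in the pathway and 1 immune marker, and leaving out the dimmest 25% gave 149, 8 and 1, with 6597 probe sets tested. The replicate numbers do not pair the arrays by the labels, and the deviations of same-numbered arrays correlated at 0.0498 and 0.0819. With the replicate block the counts were 163 on the array, 11 in the pathway, 1 among Apol, Ly6, Phf11 and Ifi35 relatives and 2 immune markers; PD array 3 has no partner there, so the block's differences equal those without it. Fewer arrays or probe sets entered some of these fits, and the cause of the changes in counts was not tested. With 2 arrays of pooled cDNA in 1 strain, the arrays limit what a single gene can show.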
